A study of Schizosaccharomyces pombe with 32 samples.

Results

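The genes described here encode the proteins of the large (60S) subunit of the cytosolic ribosome of the fission yeast Schizosaccharomyces pombe. They were chosen by their annotated symbol, rpl followed by a number, which gave 70 genes of the 4811 tested, each measured by 1 probe. A further 7 genes whose RefSeq symbol has this form (rpl1802, rpl2001, rpl2002, rpl3703, rpl4101, rpl4102 and rpl801) were not analysed under those symbols. Of the 70 genes, 69 matched a RefSeq gene, and rpl18 is kept under the name of the array's gene table, because RefSeq lists that name as an older one of rpl801. The probe named rpl18 may thus measure rpl801, and it is in none of the pairs below. The last 2 digits of many symbols, 01, 02 or 03, mark copies of the same protein gene, and 53 of the 70 genes form 28 such pairs. The genes rpl1601, rpl1602 and rpl1603 were paired in every combination, so each of them is in more than 1 pair.

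Transcripts were measured on 32 spotted 2-colour arrays. Cells of the strain labelled L972 were starved of nitrogen without pheromone, and cells of the strain labelled CRL672 were starved with 0.5 ug/ml of synthetic P-factor, the mating pheromone released by P cells. Each was sampled every hour from 1 to 8 h, with 2 arrays at each hour (16 arrays in each condition). Each array set polyA RNA of starved cells (Cy5) against that of the same strain in logarithmic growth (Cy3), so the growing cells were in rich medium and the starved cells in minimal medium without nitrogen. Strain and P-factor changed together, and their effects cannot be told apart. By the array numbers in their labels the arrays form 4 runs of 8 hourly arrays, named here series 1 and series 2 of each condition. Every value is a log ratio of starved over growing cells, taken as log2 and centred on the array's median gene, so a value of -1 is a level 2-fold lower than in growth relative to the typical transcript. Arrays carry no read depth, and precision depends on how many there were and on each gene's spread between them. RNA came from whole cultures, so fewer cells with a transcript and less transcript per cell cannot be told apart.

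The large subunit joins amino acids in its peptidyl transferase centre, which is made of RNA, and its proteins fold and stabilise that RNA, anchor the stalk that recruits elongation factors and line the tunnel through which the new chain leaves. Making these proteins takes up much of the transcription and translation of a growing yeast cell. In yeasts, ribosomal protein genes are known to be transcribed as a coordinated group under the control of the TOR kinase pathway, which senses nitrogen. Many of them are duplicated, and the copies usually encode nearly identical proteins.

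The first question was how far these transcripts differed from growth during starvation. Without P-factor, 68 of the 70 genes were lower than in growth over the average of 1 to 8 h, 1 was higher (rpl501) and 1 was not called (rpl1202), by limma with an adjusted p below 0.05. Of all genes tested, 35.3% were called lower and 33.7% higher. The median of the 70 averages was -2.07, a level 4.19-fold lower than in growth, with quartiles of -2.21 and -1.90, against a median of -0.00 for all genes. A level at least 2-fold lower was called for 67 of the 70 genes and for 14.4% of all genes, and one at least 4-fold lower for 45 of the 70 and for 3.47% of all genes. With P-factor, 69 genes were lower and 1 was higher (rpl501), where 32.8% of all genes were lower and 33.9% higher. The median was again -2.07, and 68 genes were at least 2-fold lower and 45 at least 4-fold lower, against 14% and 3.95% of all genes.

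**Figure D1:**
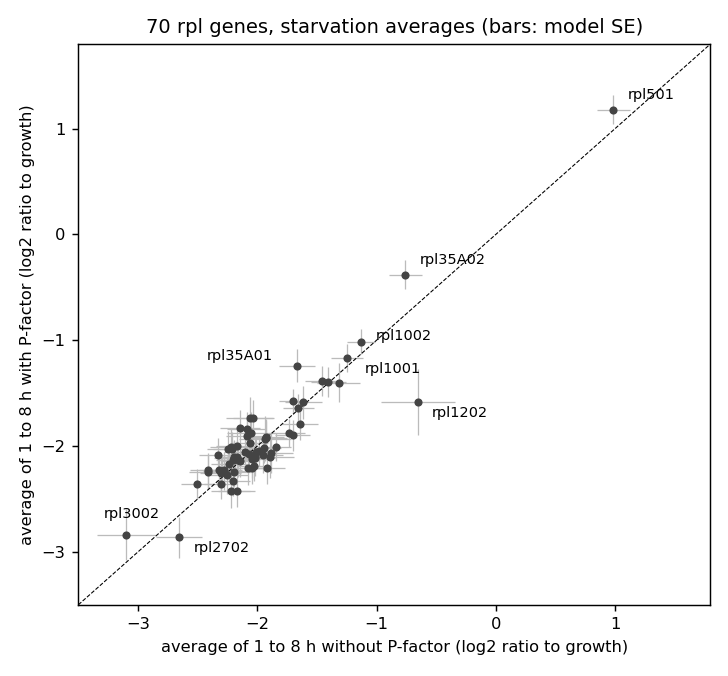
Average log2 ratio of starved over growing cells for each of the 70 genes, without P-factor on the horizontal axis and with P-factor on the vertical axis, with model standard errors as bars and the line of equality dashed. Most genes lie in 1 cloud near -2 on both axes, rpl501 lies above 0 on both, and rpl1202 lies off the line.

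The lowest average without P-factor belonged to rpl3002, 1 of the 2 genes for eL30, a protein that in budding yeast is known to repress the splicing of its own transcript. It stood at -3.10 ± 0.24 (model SE, 16 arrays), 8.60-fold below growth (limma adjusted p = 1.39e-10). It was followed by rpl2702 at -2.66, rpl502 at -2.50, rpl802 at -2.41 and rpl702 at -2.41. With P-factor the 5 lowest were rpl2702 at -2.86, rpl3002 at -2.84, rpl3202 at -2.43, rpl302 at -2.42 and rpl402 at -2.36. Thus rpl2702 and rpl3002 were among the lowest in both conditions. At the other end without P-factor stood rpl501 at 0.99, rpl1202 at -0.65, rpl35A02 at -0.76, rpl1002 at -1.13 and rpl1001 at -1.25. With P-factor these were rpl501 at 1.18, rpl35A02 at -0.38, rpl1002 at -1.01, rpl1001 at -1.17 and rpl35A01 at -1.24. The call of rpl35A02 with P-factor (limma adjusted p = 0.0198) was lost with 1 value for each series (adjusted p = 0.057). Its average with P-factor was -0.42 without series 1 and -0.34 without series 2.

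By role, all 8 genes for proteins near the peptidyl transferase centre (uL3, uL4, uL2 and uL16, encoded by rpl301, rpl302, rpl401, rpl402, rpl802, rpl803, rpl1001 and rpl1002) were lower in both conditions, with medians of -2.21 without and -2.24 with P-factor. The rpl1001 and rpl1002 genes for uL16 stood above the other 6 genes, as given above. All 10 genes for proteins at the exit tunnel were lower too, with medians of -2.03 and -2.04, among them rpl39 at -2.20 with P-factor and rpl2502 at -2.20 without it. Of the 4 genes for the proteins that carry the 5S RNA into the subunit (uL18 and uL5), rpl502, rpl1101 and rpl1102 were lower, at -2.50, -2.09 and -2.14 without P-factor, and rpl501 was higher. At the base of the stalk, both genes for uL6 were lower, rpl901 at -2.18 and rpl902 at -2.28 without P-factor. The uL11 gene rpl1201 was lower at -1.61, while its copy rpl1202 was called lower with P-factor alone, which concerns a single array series described below.

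Related genes outside the set help to place these values. The shares of all genes to set beside their counts were 35.3% lower and 33.7% higher without P-factor, and 32.8% and 33.9% with it. Of 44 genes for proteins of the small subunit, 43 were lower without P-factor (median -2.16), led by rps1401 at -2.67, rps101 at -2.59 and rps2802 at -2.52, and 43 were lower with it (median -1.99). The exception in both was rps7, at 0.66 without and 0.64 with P-factor, named after its value was seen. All 6 genes of the acidic stalk proteins were lower in both conditions, with medians of -2.20 and -2.34, rpp201 being at -2.26 and -2.38. Of 40 measured assembly factors of the large subunit, 37 were lower in each condition, with medians of -1.64 and -1.79, and the helicase has1 was higher, at 1.97 and 1.55. The lowest included dbp3, an RNA helicase, at -3.17 without and -3.22 with P-factor, and rrb1, known in budding yeast as a chaperone of uL3, at -2.87 and -3.85. The 28 genes of the mitochondrial large subunit moved less, with 19 lower and 4 higher without P-factor (median -0.50) and 13 lower and 2 higher with it (median -0.31). Of 34 translation factors, 33 were lower in each condition (medians -1.25 and -1.14), and tef102, for an elongation factor, was higher at 1.46 and 1.81. Of 26 genes of the TOR pathway and of known regulators of ribosomal protein genes, 21 were higher and 1 lower without P-factor, and 19 higher and 1 lower with it; the lower one was wat1, at -0.46 and -0.28. The genes has1, tef102 and wat1 were likewise named after their values were seen.

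The next question was how the levels moved from hour to hour. The medians of the 70 genes without P-factor were -2.38, -2.51, -2.40, -2.44, -1.93, -1.91, -1.49 and -1.45 from 1 to 8 h. With P-factor they were -1.89, -1.91, -2.15, -2.24, -2.18, -2.08, -1.96 and -1.95. The lowest hour without P-factor was 2 h for 37 genes, 1 h for 15 and 4 h for 11, and with P-factor it was 4 h for 38 genes and 5 h for 12. Of the 1120 values of a gene at an hour, 1090 were lower than growth, 16 were higher and 14 were not called by limma. Over all genes and hours, 28.1% of such values were called lower and 26.7% higher without P-factor, and 27.1% lower and 27.1% higher with it. All 16 higher values were those of rpl501. The values not called were the 8 hours of rpl1202 without P-factor, rpl35A02 at 8 h without P-factor and rpl35A02 from 4 to 8 h with it.

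**Figure D2:**
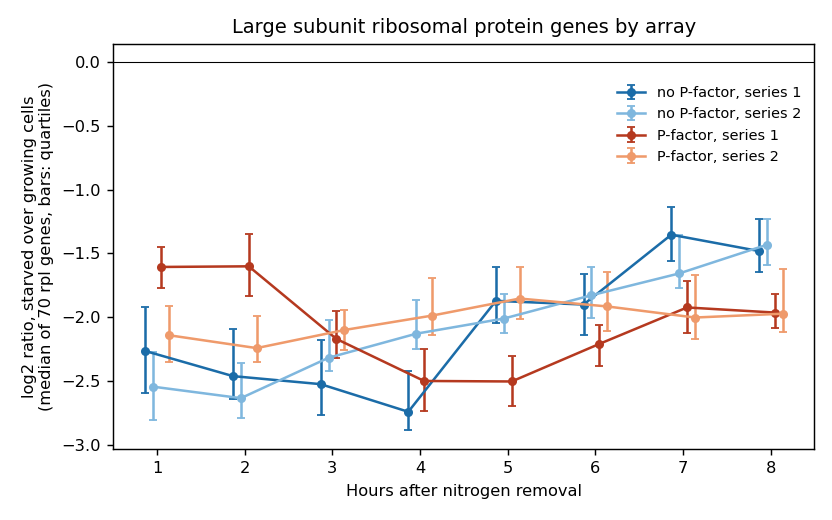
Median log2 ratio of the 70 genes on each of the 32 arrays by hours after nitrogen removal, with the quartiles over genes as bars and 1 line for each array series. Both series without P-factor end near -1.45, series 1 with P-factor goes from -1.61 at 1 h to -2.51 at 5 h, and series 2 with P-factor stays between -2.24 and -1.85.

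The 4 array series differed in their course. Without P-factor, series 1 had its lowest median of -2.74 at 4 h and its highest of -1.35 at 7 h, and series 2 its lowest of -2.64 at 2 h and its highest of -1.43 at 8 h. With P-factor, series 1 had its highest median of -1.60 at 2 h and its lowest of -2.51 at 5 h, whereas series 2 had its lowest of -2.24 at 2 h and its highest of -1.85 at 5 h. The averages over all hours were close all the same, at -2.08 and -2.09 without P-factor and -2.09 and -2.04 with it. The labels say that the experiments were repeated but not that the arrays of a series came from 1 culture, so the p-values measure the spread between these arrays.

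Late starvation (the mean of 6 to 8 h) was compared with early starvation (the mean of 1 to 3 h). Without P-factor, 67 of the 70 genes rose by limma, where 24% of all genes rose and 18.3% fell. None of the 70 fell, and none had a negative value. The median change was 0.82, against 0.05 for all genes, and 11 genes rose at least 2-fold. On 45 genes every one of the 6 late arrays lay above every one of the 6 early arrays, which held for 6.94% of all genes. For example, rpl102, for the L1 stalk protein uL1, went from -2.62 early to -1.35 late, still below growth, while rpl501, above growth throughout, went from 0.79 to 1.14. The call of rpl501 was near the threshold (limma adjusted p = 0.0464). It was lost on the values as deposited (0.28, adjusted p = 0.118) and in a model without the block (0.35, adjusted p = 0.304). The largest rises were those of rpl3002 at 2.68 ± 0.24, rpl102 at 1.27 ± 0.13, rpl44 at 1.24 ± 0.19, rpl2702 at 1.20 ± 0.19 and rpl702 at 1.13 ± 0.16. The genes not called were rpl1001 at 0.09 ± 0.13 (adjusted p = 0.617), rpl1002 at 0.14 ± 0.12 (adjusted p = 0.376) and rpl1202 at 0.28 ± 0.31 (adjusted p = 0.498), all by limma. For rpl1202 the 2 series moved in opposite directions, from 1.01 at 1 h to -0.14 at 8 h in series 1 and from -2.30 to -0.80 in series 2. Without series 1 its change was 1.07. The median rise was 0.82 in series 1, where 69 of 70 genes were higher late, and 0.85 in series 2, where all 70 were. With 1 of the 2 series left out, 49 genes were called without series 1 and 45 without series 2.

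With P-factor the median change was -0.01, against 0.11 for all genes, and 8 of the 70 genes were called by limma. The 5 genes that rose were rpl3002 at 1.39 ± 0.24, rpl35A02 at 0.78 ± 0.14, rpl102 at 0.54 ± 0.13, rpl501 at 0.52 ± 0.14 and rpl35A01 at 0.38 ± 0.15, where 33.7% of all genes rose. The 3 that fell were rpl1002 at -0.63 ± 0.12, rpl1001 at -0.55 ± 0.13 and rpl14 at -0.35 ± 0.14, where 19.8% of all genes fell. Every late array lay above every early array for 4 genes, against 14.6% of all genes. The centred scale matters here: on the values as deposited, with a median of -0.20 for the 70 genes, 3 rose and 10 fell. The 2 series also moved in opposite directions, with a median change of -0.23 in series 1, where 58 genes were lower late, and of 0.20 in series 2, where 58 were higher late. Without series 1, 8 genes rose and 2 fell, and without series 2, 4 rose and 9 fell. The call of rpl14 was lost without series 1 (-0.08, limma adjusted p = 0.752), as was that of rpl501 (0.39, adjusted p = 0.168). That of rpl35A01 was lost without series 2 (0.01, adjusted p = 0.97).

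**Figure D3:**
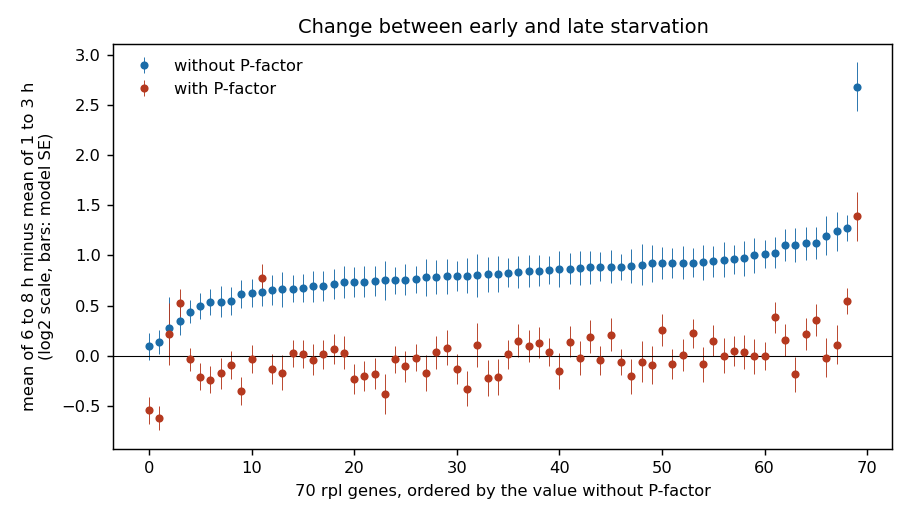
Change from 1 to 3 h to 6 to 8 h of starvation for each of the 70 genes, ordered by the change without P-factor, with model standard errors as bars. All 70 values without P-factor lie above 0, and the values with P-factor lie on both sides of 0, with rpl3002, the rightmost gene, the highest.

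The same change was counted in the related genes. Of all genes, 24% rose and 18.3% fell without P-factor, and 33.7% rose and 19.8% fell with it. Without P-factor, 42 of 44 small subunit genes and all 6 acidic stalk genes rose, with medians of 0.76 and 0.85, and 33 of 40 assembly factors rose and 3 fell (median 1.03). With P-factor, 2 small subunit genes fell, rps27 at -0.37 and rps13 at -0.35 (median 0.00), 1 acidic stalk gene rose, rpp203 at 0.47, and 31 assembly factors rose and 3 fell (median 0.97). Of the 34 translation factors, 11 rose and 1 fell without P-factor (median 0.11), and 22 rose and 3 fell with it (median 0.36). Of the 28 mitochondrial genes, 5 fell without P-factor (median -0.03), and 8 rose and 5 fell with it (median -0.01). Of the 26 TOR pathway and regulator genes, 4 rose and 2 fell without P-factor, and 9 rose and 1 fell with it. The difference between the conditions, called upward for 15.6% and downward for 10.2% of all genes, was called downward for 38 small subunit genes. Downward calls also covered 5 of the 6 acidic stalk genes, where the difference had a median of -0.79. It was called upward for 2 and downward for 3 assembly factors, upward for 7 and downward for 2 translation factors, upward for 3 mitochondrial genes, and upward for 4 and downward for 1 of the TOR pathway and regulator genes.

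The strains with and without P-factor were compared directly. Averaged over 1 to 8 h, none of the 70 genes was called by limma, and 1 had an unadjusted p below 0.05, where 2.12% of all genes were called higher with P-factor and 1.21% lower. The median difference was 0.04. The lowest values were rpl1202 at -0.93, rpl39 at -0.28, rpl3202 at -0.25, rpl1502 at -0.21 and rpl2702 at -0.20, and the highest were rpl35A01 at 0.43, rpl35A02 at 0.38, rpl44 at 0.33, rpl1102 at 0.32 and rpl2401 at 0.30. The value of rpl1202 rests on series 1 of the condition lacking P-factor, described below. Without that series rpl1202 averaged -1.60 in that condition, against -1.59 with P-factor. Hour by hour the median difference went from 0.57 at 1 h and 0.59 at 2 h through 0.22, 0.13, -0.21 and -0.17 to -0.51 at 7 h and -0.47 at 8 h. None of the 560 hourly differences was called (smallest adjusted p = 0.0708), and 50 had an unadjusted p below 0.05. Over all genes and hours, 2% of these differences were called higher with P-factor and 0.722% lower.

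The change from early to late differed between the conditions for 66 of the 70 genes, all lower with P-factor, where 10.2% of all genes were lower and 15.6% higher by limma. The median difference was -0.80, against 0.05 for all genes. The largest were rpl3002 at -1.29 ± 0.34 (adjusted p = 0.00766), rpl3802 at -1.29 ± 0.24 (adjusted p = 0.000537), rpl2702 at -1.22 ± 0.27, rpl2402 at -1.14 ± 0.28 and rpl44 at -1.13 ± 0.27. The genes not called were rpl501, rpl1202, rpl35A02 and rpl15. The number depended on the array series. It was 17 without series 1 and 19 without series 2 of the condition lacking P-factor, and 25 without series 1 and 64 without series 2 of the condition with it. With 1 value for each series, 2 against 2, limma called 1 gene, rpl3802, although 61 had an unadjusted p below 0.05; 3.65% of all genes were called in that fit.

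The 28 pairs of copies were compared by the difference of their log ratios on the same array. This says how differently 2 copies moved from their own levels in growth, and nothing about which is more abundant. Probe sequences were not used here, so the part of one copy's RNA binding to the other copy's probe was not tested. Over the 32 arrays, 19 of the 28 pairs differed by less than 0.25 on average, the median absolute difference was 0.12, and the median correlation between copies was 0.88 (Pearson, 32 arrays that share their centring, as a description). Averaged over 1 to 8 h, limma called 9 of the 28 pairs in each condition, 7 of them in both, where 42% of all 88 same-number pairs of any gene family were called without P-factor and 43.2% with it. Some of those other pairs share a number without being copies. The closest pairs were rpl3601 and rpl3602 with a mean difference of 0.01, rpl1101 and rpl1102 with 0.02, and rpl2801 and rpl2802 with -0.02.

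**Figure D4:**
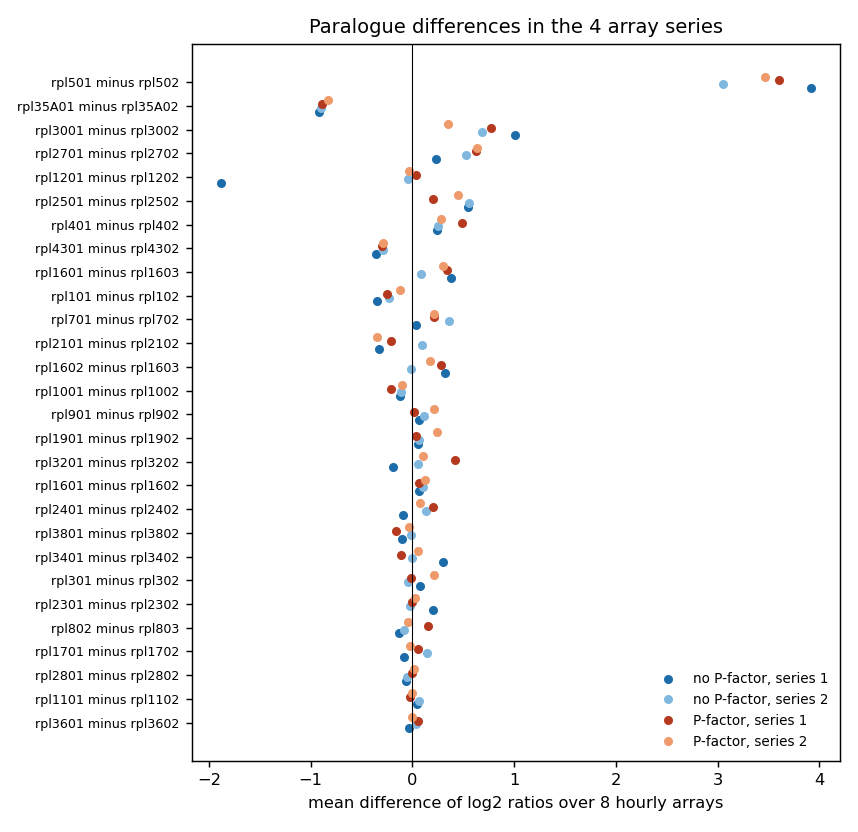
Mean difference of log2 ratios between the copies of each of the 28 pairs over the 8 hourly arrays of each array series, ordered by absolute size. The rpl501 and rpl502 pair lies above 3 in all 4 series, and the rpl1201 and rpl1202 pair lies near 0 in 3 series and at -1.88 in series 1 without P-factor.

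The pair rpl501 and rpl502, both for uL18, which binds the 5S RNA, was the only one whose copies were called in opposite directions. The log2 ratios of rpl501 from 1 to 8 h without P-factor were 0.97, 1.32, 1.43, 1.52, 1.23, 1.61, 1.41 and 1.70 in series 1. In series 2 they were 0.28, 0.59, 0.18, 0.90, 0.50, 0.90, 0.74 and 0.49. With P-factor they were 0.72, 0.99, 0.86, 1.19, 1.68, 1.56, 1.63 and 1.35 in series 1 and 0.92, 0.82, 0.80, 1.15, 1.50, 1.35, 1.09 and 1.26 in series 2. All 32 values were thus above 0, and those of series 2 without P-factor were lower than those of series 1 at every hour. The average was 0.99 ± 0.14 without P-factor (1.98-fold above growth, limma adjusted p = 1.47e-06) and 1.18 ± 0.14 with it (2.26-fold, adjusted p = 1.05e-07).

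The values of rpl502 were below 0 on all 32 arrays. Without P-factor they ran from -2.63 at 1 h through -3.19 at 3 h to -1.74 at 8 h in series 1 and from -2.77 through -3.06 at 2 h to -1.83 in series 2. With P-factor they ran from -1.86 through -2.90 at 5 h to -2.12 in series 1 and from -2.40 to -2.29 in series 2. The course of rpl502 correlated with the median of the other 69 genes at 0.95 over the 32 arrays, and that of rpl501 at 0.05. The difference rpl501 minus rpl502 averaged 3.51 over all arrays, between 2.32 and 4.62, with series means of 3.92, 3.06, 3.60 and 3.47. It was 3.49 ± 0.19 without and 3.54 ± 0.19 with P-factor by limma (adjusted p = 6.01e-13 and 4.85e-13). From early to late it changed by -0.51 ± 0.19 without P-factor and 0.49 ± 0.19 with it, and these changes differed by 0.99 ± 0.27 (adjusted p = 0.00966). Each of these 3 calls was lost when 1 series was left out. The change without P-factor was -0.40 without series 1 (adjusted p = 0.291) and -0.62 without series 2 (adjusted p = 0.0884). The change with P-factor was 0.20 without series 1 (adjusted p = 0.578). The difference between them was lost without series 1 of either condition, with adjusted p of 0.0759 and 0.144.

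**Figure D5:**
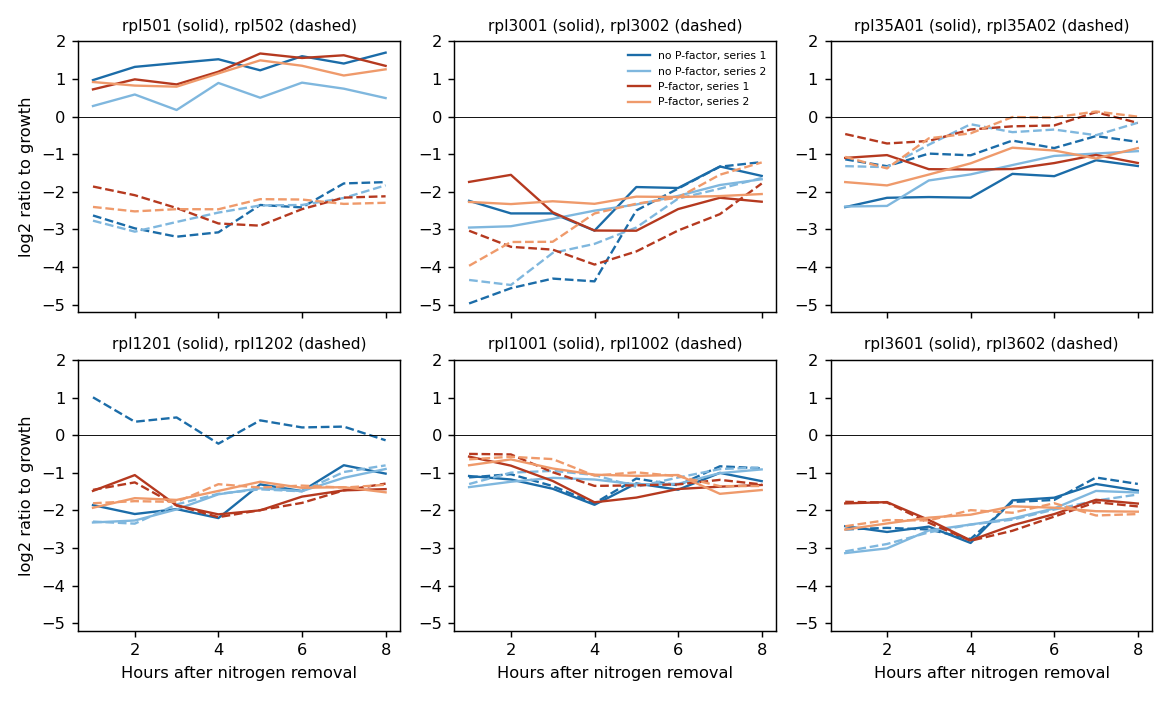
Log2 ratio by hours after nitrogen removal for the 2 copies of 6 pairs, the first copy solid and the second dashed, with 1 colour for each array series. The rpl501 lines lie above 0 and the rpl502 lines below it, rpl3002 starts below rpl3001 and lies above it at 8 h, and rpl1202 lies apart from its copy in series 1 without P-factor alone.

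The eL30 pair differed in its course. The log2 ratios of rpl3002 without P-factor were -4.97, -4.56, -4.31, -4.38, -2.50, -1.91, -1.33 and -1.21 in series 1 and -4.34, -4.48, -3.62, -3.38, -2.95, -2.18, -1.92 and -1.63 in series 2. With P-factor they were -3.03, -3.46, -3.54, -3.93, -3.58, -3.03, -2.59 and -1.78 in series 1 and -3.96, -3.33, -3.33, -2.57, -2.31, -2.15, -1.54 and -1.22 in series 2. In every series the value at 8 h was the highest of the 8. The other copy, rpl3001, started higher, at -2.24, -2.95, -1.74 and -2.27 at 1 h in the 4 series, and stood at -1.58, -1.67, -2.26 and -2.06 at 8 h. The difference rpl3001 minus rpl3002 averaged 0.85 ± 0.19 without and 0.56 ± 0.19 with P-factor, and it fell by 1.75 from early to late without P-factor (adjusted p = 2.57e-07) and by 1.48 with it (adjusted p = 1.23e-06). The difference between these falls, 0.28 ± 0.27, missed the threshold (limma adjusted p = 0.499). Without series 1 with P-factor, the averaged difference in that condition was 0.35 (adjusted p = 0.357).

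The pair for eL33, rpl35A01 and rpl35A02, lay apart on every array, with rpl35A02 the higher on all 32. The values of rpl35A02 at 1 h were -1.14 and -1.32 without and -0.46 and -1.07 with P-factor, and at 8 h they were -0.67 and -0.16 without and -0.17 and -0.00 with it. Those of rpl35A01 at 1 h were -2.41 and -2.39 without and -1.10 and -1.74 with P-factor, and at 8 h they were -1.31, -0.92, -1.23 and -0.84 in the same order. The difference rpl35A01 minus rpl35A02 averaged -0.91 ± 0.10 without P-factor and -0.86 ± 0.10 with it, and its series means lay between -0.91 and -0.83. It changed from early to late by 0.39 ± 0.10 without P-factor and by -0.40 ± 0.10 with it, and the 2 changes differed by -0.79 ± 0.14 (adjusted p = 0.000258). With 1 value for each series that adjusted p was 0.0947. The change without P-factor was lost without series 1 (adjusted p = 0.127) and without series 2 (adjusted p = 0.0834), and that with P-factor without series 1 (-0.29, adjusted p = 0.129).

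For uL11, rpl1202 gave 1.01, 0.36, 0.47, -0.23, 0.39, 0.21, 0.23 and -0.14 from 1 to 8 h in series 1 without P-factor. In series 2 without P-factor it gave -2.30, -2.35, -1.84, -1.56, -1.44, -1.49, -0.98 and -0.80, close to its copy rpl1201 at -2.32, -2.27, -1.97, -1.57, -1.41, -1.49, -1.13 and -0.90. Series 1 without P-factor thus stood apart from the other 3, and the mean differences of rpl1201 minus rpl1202 were -1.88 there and -0.04, 0.03 and -0.03 elsewhere. With all arrays the pair differed by -0.96 ± 0.27 without P-factor (limma adjusted p = 0.00343). Without series 1 it differed by -0.04 (adjusted p = 0.752), and rpl1202 itself averaged -1.60 and was called lower than growth.

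The other pairs among the 8 with the largest mean difference lay closer together. The gene rpl2701 stood above rpl2702, both for eL27, by 0.38 ± 0.11 without and 0.63 ± 0.11 with P-factor, on 30 of 32 arrays. The gene rpl2501 stood above rpl2502, for uL23 at the tunnel exit, by 0.55 ± 0.11 and 0.32 ± 0.11, on 31 of 32 arrays. The gene rpl401 stood above rpl402, for uL4, by 0.25 ± 0.10 and 0.39 ± 0.10, on 30 of 32 arrays. The gene rpl4301 lay below rpl4302, for eL43, by a difference of -0.33 ± 0.09 and -0.29 ± 0.09, on all 32 arrays. All 4 were called in both conditions by limma, as were the uL18, eL30 and eL33 pairs, but each of the 4 lost a call when 1 series was left out. The eL27 difference without P-factor was 0.23 without series 2 (adjusted p = 0.08), and the uL23 difference with P-factor was 0.20 without series 2 (adjusted p = 0.331). The uL4 difference without P-factor lost its call without any 1 of the 4 series (adjusted p of 0.0565 to 0.0854), and with P-factor it lost it without series 1 (adjusted p = 0.182). The eL43 difference with P-factor lost its call without either P-factor series (adjusted p of 0.161 and 0.18). The change from early to late differed between copies for 6 pairs without and 5 pairs with P-factor, where 20.5% and 26.1% of all 88 pairs were called. In both conditions these were the uL18, eL33 and eL30 pairs and the uL1 pair rpl101 and rpl102, by -0.34 ± 0.09 without and -0.32 ± 0.09 with P-factor. Without P-factor rpl2701 and rpl2702 (-0.39 ± 0.11) and rpl2801 and rpl2802 (0.35 ± 0.08) were called too. These 2 changes were -0.17 and 0.25 without series 1. With 1 value for each series their limma adjusted p were 0.192 and 0.159. With P-factor rpl1602 and rpl1603 were called too (-0.34 ± 0.14). At 1 to 3 h rpl1602 minus rpl1603 was 0.428, 0.862 and 0.322 in series 1 and 0.235, -0.117 and 0.43 in series 2. At 6 to 8 h it was -0.039, -0.364 and 0.163 in series 1 and -0.005, 0.083 and 0.275 in series 2. Without series 1 of the condition lacking P-factor, 2 pairs were called there. No pair was called as different between the conditions on average. The uL11 pair above had the smallest limma adjusted p (0.203), and 1 pair had an unadjusted p below 0.05. Of all pairs, 1.14% were called. In a model without the block, 4 of the 28 pairs were called. Between the conditions the change from early to late differed for 3 pairs, where 6.82% of all pairs were called: the uL18 and eL33 pairs above, and rpl3801 and rpl3802 by 0.37 ± 0.13 (adjusted p = 0.035).

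Each gene's course over the 32 arrays was set beside the median of the other 69. The Pearson correlations had a median of 0.895 and were above 0.9 for 32 genes, as a description over arrays that share their centring. The lowest were those of rpl501 at 0.05, rpl1202 at 0.21, rpl35A02 at 0.46, rpl1002 at 0.49 and rpl1001 at 0.51. The uL16 genes rpl1001 and rpl1002 resembled each other, with a correlation of 0.93 and a mean difference of -0.14. Their averages at 1 h and 8 h were -1.23 and -1.07 for rpl1001 and -1.21 and -0.87 for rpl1002 without P-factor. With P-factor they were -0.68 and -1.39 for rpl1001 and -0.57 and -1.33 for rpl1002, lower late in both series. The uL16 pair was thus the only pair of which both copies were called as falling from early to late with P-factor, and it gave neither a called rise nor a called fall without it.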

How the data were processed

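The deposited table held 1 log ratio for each of 5188 probes on each of 32 arrays. The direction, Cy5 starved over Cy3 growing, is per the labels. The deposited values were taken as log2. Their base, background correction and normalization by the authors are not given in the sources used here; their range (-5.52 to 9.78) is too wide for base 10, and natural logarithms would change every fold. The labels show no dye swap, and any dye bias of a probe remains in its ratio to growth. Of the probes, 4868 had 1 gene, 22 had several and 298 were not listed. Probes of 1 gene were averaged (4 of 4819 genes), and each array was centred on its median gene (-0.154 to 0.091). Genes measured on at least 24 arrays were tested, 4811 in all; 2 of the 2240 values of the 70 genes were missing, 1 each of rpl13 and rpl802, and the fits went without them. RefSeq assembly ASM294v3 served for names alone.

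With limma 3.58.1 (R 4.3.3), the model held 1 mean per group (16 groups), with array series as a random block (correlation 0.354), moderated variances (16 residual and 6.32 prior degrees of freedom), two-sided tests and Benjamini-Hochberg adjustment over all genes at 0.05. Differences within pairs were fitted as further features, 28 here and 60 of other families, and adjusted together with the genes. Every ± is a model standard error. The fit was tested on simulated data, in which comparisons averaged over hours called somewhat more unchanged genes than the threshold allows. There the fit recovered 26% of P-factor minus none differences of 0.5 averaged over hours, 87% of those of 1, and 7% of pair differences of 0.3. The simulated pairs joined randomly drawn genes with independent noise, so the 7% does not measure the power for copies that move together. Genes were named by extremes: the 5 lowest and highest in a comparison, any called against the majority, the 8 pairs with the largest and the 3 with the smallest mean difference, and up to 3 genes of each other list. The genes, lists, comparisons and this rule were chosen with earlier results of these data known. The labels do not number the replicates. Series 1 and 2 of one condition were not paired with those of the other.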

Additional observations from a re-analysis of the deposited data

Results flagged for a closer look

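The change from early (1 to 3 h) to late (6 to 8 h) starvation differed between the conditions by limma's test of the difference for 66 of the 70 genes, all lower with P-factor, where 10.2% of all genes were lower and 15.6% higher. The count was 17 or 19 without 1 series lacking P-factor, 25 or 64 without 1 with P-factor, and 1 with series means. Among those named by the rule, the difference with P-factor minus without was -1.29 for rpl3002, -1.29 for rpl3802, -1.22 for rpl2702, -1.14 for rpl2402, -1.13 for rpl44, -0.64 for rpl1001 and -0.48 for rpl8. Within pairs it was 0.99 for rpl501 minus rpl502 and -0.79 for rpl35A01 minus rpl35A02. With series means, rpl3802 kept its call, and the other 6 genes and both pairs lost theirs, with limma adjusted p of 0.09 to 0.244. Strain and array series changed with P-factor and cannot be told apart from it. The 2 series with P-factor had median changes of -0.23 and 0.20, and those without P-factor 0.82 and 0.85.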

How the results depend on the processing

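The averages against growth, in either condition and at each hour, and the late minus early count without P-factor stayed within 1.5 times the reported counts in every setting tried; without 1 array series they were 68 to 70, 68 to 70, 1087 to 1101 and 45 to 66. Late minus early with P-factor gave 8 genes, 13 on values as deposited, 5 with no block and 6 to 13 without 1 series. P-factor minus none on average gave 0, 4 with no block and 0 to 4 without 1 series. The hourly differences gave 0, 2 with arrays scaled to the same spread and 0 to 6 without 1 series. The difference between conditions in the early to late change gave 66, 17 to 64 without 1 series and 1 with series means. Called pair differences, both conditions together, were 18, 29 with no block, 9 with series means and 12 to 22 without 1 series, and called pair changes from early to late 11, 2 with series means and 6 to 11 without 1 series. With array series as a fixed replicate block, 67 genes were called late minus early without P-factor and 8 with it, and 12 pair changes, against 67, 8 and 11; this replicate block changed no count by over 1.5 times. The settings are a model without the block and series means with fewer samples; the cause of the other shifts was not tested. Of 1511 recomputed tests of named genes and pairs, 1391 kept direction and call, 95 lost the call, 25 gained it and 0 reversed. The alternatives for the change of a pair from early to late between the conditions were chosen after seeing the data. Precision is limited by 2 arrays an hour and 2 series a condition. Signal over background was not analysed here.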
